A study of Homo sapiens with 6 samples.

Results

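RBM47 is an RNA-binding protein, and A1CF, SYNCRIP and HNRNPR are among its relatives in sequence. This account describes these 4 genes together with 5 genes of RNA and DNA editing enzymes, the cytidine deaminases APOBEC1, APOBEC3B and APOBEC3C and the adenosine deaminases ADAR and ADARB1. The 9 genes were taken by name, with no threshold on a measured value, although earlier results of these data were known when they were chosen. Of the 9, 8 had a row among the 28491 genes of the count table and 7 passed the filter on low counts, out of 16260 genes tested. A1CF was too low to be tested, and APOBEC1 was not analysed here.

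The cells were HCT116, a human colorectal carcinoma line, cultured in every group in the same way and transfected with Lipofectamine 2000. The RBM47-OE group (3 libraries) received an RBM47 plasmid, which the labels name as pcDNA3.1-3xFlag-RBM47 (NM_019027), and the NC group (3 libraries) received a control plasmid. Polyadenylated RNA was sequenced, and the labels give a harvest 48 h after transfection. The methods of the study name another plasmid, another medium and another library kit than the labels, and which of them were used for these libraries was not determined. Every library comes from the same cell line. The libraries are labelled as replicates, but nothing says that they came from separate cultures, so the p-values measure the spread between these libraries, which may be technical. Each library held 26792409 to 35477983 counts on genes. The epithelial markers EPCAM, KRT8, KRT18, KRT19, CDH1 and CDX2 were present, at mean FPKM of 4.70 (CDX2) to 971.7 (KRT19) in NC. KRT20 and VIL1, markers of differentiated colon epithelium, were near 0, at mean FPKM of 0.347 and 0.0633.

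RNA editing changes single bases of a transcript after it is made. C-to-U editing of the apolipoprotein B mRNA in the gut needs the deaminase APOBEC1 and an RNA-binding cofactor that brings the enzyme to its target, a role described for A1CF and for RBM47. A-to-I editing is made in double-stranded RNA by ADAR and ADARB1, and the APOBEC3 enzymes act mainly on single-stranded DNA of viruses and transposons. The 2 deposited tables give reads per gene and hold no base calls, so they show the level of each editing gene and not editing itself.

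RBM47, the gene on the plasmid, checks the labels. It was counted 501, 797 and 552 times in NC replicates 1 to 3 and 41818, 38577 and 34858 times in RBM47-OE replicates 1 to 3. In FPKM, which divides by gene length and by library size, these were 1.91, 2.33 and 1.94 in NC and 131.3, 130.41 and 127.04 in RBM47-OE. The groups were far apart and the spread within each was small beside that distance. On the log2 scale RBM47 changed by 5.90, with a standard error of 0.096 and a 95% interval of 5.70 to 6.10 (adjusted p = 1.7e-25, edgeR's quasi-likelihood test over all genes tested). In a bulk culture, more RBM47 RNA per cell and more transfected cells cannot be told apart. Reads from the plasmid and from the cells' own gene on chromosome 4 (40423267 to 40630875 of GRCh38, minus strand) cannot be told apart in a table of reads per gene.

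**Figure D1:**
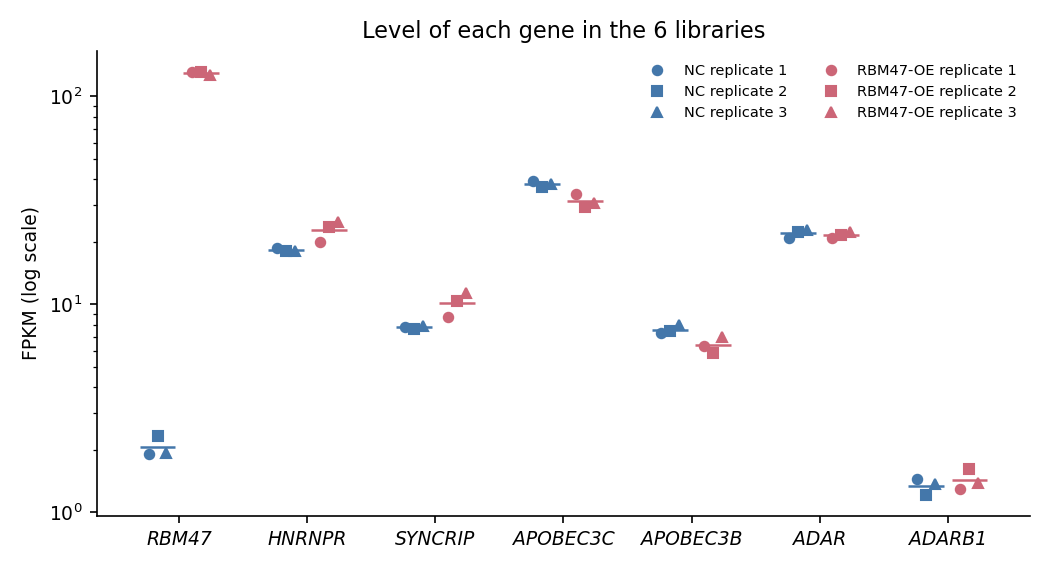
Level of the 7 tested genes in each library, in FPKM on a log axis, with NC in blue, RBM47-OE in red, a symbol for each replicate and a bar at each group mean. RBM47 moves from 1.91 to 2.33 in NC up to 127.04 to 131.3 in RBM47-OE, while the group means of the other genes lie close together, and A1CF (at most 0.02) is not drawn.

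The lncRNA RP11-588L15.2 (ENSG00000250893) lies on the opposite strand inside the RBM47 gene, at chromosome 4, 40426119 to 40427585, and was counted in a row of its own. Its counts were 1, 3 and 0 in NC and 127, 116 and 80 in RBM47-OE replicates 1 to 3. The counts were thus high in the same 3 libraries as RBM47, with no overlap between the groups. The lncRNA has 2 exons of 64 and 798 bases, of which 25 bases overlap the last coding exon of RBM47 and the rest lies in an intron of RBM47. These bases are shown because a read that covers them could be counted for either gene if strand was not used. They are given 5′ to 3′ on the strand of RBM47, in GRCh38, all in lower case.
RBM47 and RP11-588L15.2, chr4:40426119-40426143, minus strand: ggccgcccaataactccagtataca

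The counts on RP11-588L15.2, which are separate from those of RBM47, equalled 0.304%, 0.301% and 0.229% of the RBM47 counts in RBM47-OE replicates 1 to 3. Summed over libraries, the ratio was 323 to 115253 in RBM47-OE (0.280%, exact Clopper-Pearson 95% interval 0.251 to 0.312%) and 4 to 1850 in NC (0.216%, 0.0589 to 0.553%). These intervals treat the ratio as a proportion. The intervals cover counting error only, and they overlap. Whether the authors counted by strand is not given in the sources used here, so RNA of the lncRNA and RNA of RBM47 cannot be told apart at this position.

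The rest of the RBM47 neighbourhood was compared because it is not on the plasmid. Of 29 annotated genes that start within 500 kb of RBM47, 11 had a row and 3 passed the filter, RP11-588L15.2, N4BP2 and APBB2. N4BP2 went from a mean FPKM of 0.923 ± 0.0404 to 1.29 ± 0.144 (SD, n = 3 each), a log2 fold change of 0.41 (adjusted p = 0.0052, edgeR). APBB2, an adaptor that binds the amyloid precursor protein, went from 5.21 ± 0.131 to 6.44 ± 0.356, a log2 fold change of 0.23 (adjusted p = 0.012, edgeR), and lost the call without NC replicate 1 (adjusted p = 0.074) or NC replicate 2 (adjusted p = 0.071). Over all genes tested, the change in RBM47-OE followed the GC content of the exons, and a second fit took out the trend with GC content in each library (the GC offset). In that fit N4BP2 was at 0.05 and APBB2 at 0.07, and neither was called.

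Among the relatives of RBM47, SYNCRIP and HNRNPR rose slightly and A1CF was almost absent. A1CF, the cofactor first found with APOBEC1, had 1, 2 and 6 counts in NC and 6, 1 and 3 counts in RBM47-OE. Its FPKM was at most 0.02 in any library, the groups overlapped, and no fold change was computed.

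SYNCRIP (hnRNP Q) binds mRNA in the cytoplasm and affects its transport and translation. It lies on chromosome 6 (85607779 to 85644063, minus strand). Its counts were 2494, 3177 and 2744 in NC and 3375, 3774 and 3811 in RBM47-OE, and its FPKM was 7.78, 7.6 and 7.88 in NC and 8.66, 10.43 and 11.35 in RBM47-OE. Each RBM47-OE library was higher than each NC library, with replicate 1 of RBM47-OE closest to NC. SYNCRIP rose by 0.32 on the log2 scale (standard error 0.079, 95% interval 0.15 to 0.48, adjusted p = 0.0032, edgeR), or 1.24-fold.

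HNRNPR, a nuclear RNA-binding protein very similar to SYNCRIP, lies on chromosome 1 (23303771 to 23344336, minus strand). Its counts were 4978, 6307 and 5226 in NC and 6496, 7114 and 7000 in RBM47-OE. Its FPKM was 18.66, 18.11 and 18.01 in NC and 20.02, 23.61 and 25.04 in RBM47-OE. The groups again did not overlap and RBM47-OE replicate 1 was again the closest to NC. HNRNPR rose by 0.25 on the log2 scale (standard error 0.075, 95% interval 0.10 to 0.41, adjusted p = 0.010, edgeR). It lost the call without NC replicate 2 (0.24, adjusted p = 0.065), NC replicate 3 (0.24, adjusted p = 0.059) or RBM47-OE replicate 3 (0.18, adjusted p = 0.069).

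SYNCRIP and HNRNPR kept nearly the same proportion to each other. The FPKM of SYNCRIP divided by that of HNRNPR was 0.417, 0.420 and 0.438 in NC and 0.433, 0.442 and 0.453 in RBM47-OE. These ratios overlapped between the groups (exact two-sided permutation p = 0.20, where 0.10 is the smallest value that 3 against 3 libraries can give).

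Neither rise was above the median of genes of like base composition. The exons of SYNCRIP hold 37.6% GC and those of HNRNPR 35.3%. Of 10 bins of genes by GC content, both fall in the lowest, in which the median log2 fold change was 0.38 and 65.0% of the 1624 genes were called higher. With the GC offset, the log2 fold change of SYNCRIP was -0.04 (95% interval -0.14 to 0.07, adjusted p = 0.72) and that of HNRNPR was -0.14 (95% interval -0.25 to -0.03, adjusted p = 0.073). The alternatives gave adjusted p-values from 1.9e-05 to 0.77 for SYNCRIP and from 1.0e-04 to 0.13 for HNRNPR. Across genes, Spearman's rho between GC content and the difference from NC was -0.41, -0.59 and -0.67 in RBM47-OE replicates 1 to 3. The part of the GC trend in these rises was not tested, and the offset removes any change that follows GC content, whatever its source.

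**Figure D2:**
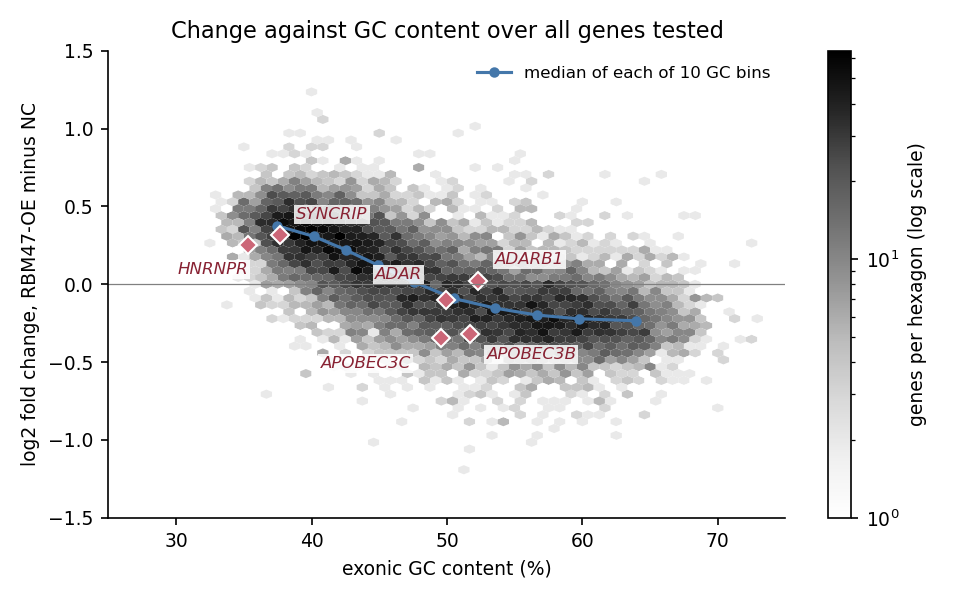
Log2 fold change (RBM47-OE minus NC) against exonic GC content in percent for the genes tested, shaded by the number of genes in each hexagon on a log scale, with the median of each of 10 GC bins as a blue line and 6 of the described genes as red diamonds. The bin medians fall from 0.38 to -0.23, SYNCRIP and HNRNPR sit at the low-GC end below the first bin median, APOBEC3C and APOBEC3B lie below the line near the middle, and RBM47, at 5.90, is beyond the axis.

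SYNCRIP also shares sequence with another annotated gene. RP11-321N4.5 (ENSG00000271793), a protein-coding read-through gene on the same strand that runs from SYNCRIP to SNX14, covers 2832 exonic bases of SYNCRIP (27.1%). It was counted 7219, 8684 and 7792 times in NC and 9387, 9650 and 9971 times in RBM47-OE, more than SYNCRIP in every library, so part of the SYNCRIP reads may have been counted there. Its log2 fold change was 0.22 (adjusted p = 0.025, edgeR). With both rows summed, an alternative chosen after seeing the data, the log2 fold change was 0.25 (adjusted p = 0.014). The level of SYNCRIP itself is therefore uncertain, while the direction was the same for SYNCRIP alone, for the read-through gene and for their sum without the GC offset.

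RBM47 went from the third to the first place among its relatives. It made up 6.74%, 8.31% and 6.97% of the FPKM summed over RBM47, A1CF, SYNCRIP and HNRNPR in NC, and 82.1%, 79.3% and 77.7% in RBM47-OE. The means were 7.34 ± 0.848% and 79.7 ± 2.19% (SD, n = 3, exact two-sided permutation p = 0.10, the smallest value possible). With SYNCRIP taken from its own row alone, HNRNPR held the largest share in NC, 65.0 ± 0.697%, and 14.1 ± 1.43% in RBM47-OE. With the FPKM of the read-through gene added to SYNCRIP, the RBM47 share was 3.78 ± 0.520% in NC and 66.5 ± 2.85% in RBM47-OE. On that basis SYNCRIP held the largest share in NC, 62.8 ± 1.07%, ahead of HNRNPR, at 33.4 ± 0.634%. Set against HNRNPR alone, the FPKM of RBM47 was 0.113-fold in NC and 5.72-fold in RBM47-OE. All of these are shares of mRNA, and protein was not measured in these tables.

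Both APOBEC3 genes fell. APOBEC3C restricts retroviruses and LINE-1 retrotransposons and lies on chromosome 22 (39014257 to 39020352, plus strand). Its counts were 3175, 3898 and 3353 in NC and 3343, 2700 and 2600 in RBM47-OE, and its FPKM was 39.18, 36.85 and 38.05 in NC and 33.92, 29.49 and 30.62 in RBM47-OE. On the FPKM scale all RBM47-OE libraries lay below all NC libraries, and replicate 1 was again the closest to NC. The fall of APOBEC3C on the log2 scale was -0.35 (standard error 0.075, 95% interval -0.50 to -0.19, adjusted p = 9.8e-04, edgeR), or 0.786-fold. It was -0.29 with the GC offset (95% interval -0.42 to -0.17, adjusted p = 0.0032). The bin of genes with like GC content had a median log2 fold change of -0.09. APOBEC3C passed an adjusted p of 0.05 in every alternative fit, with values from 1.3e-05 to 0.045.

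APOBEC3B, a nuclear deaminase that mutates genomic DNA in many tumors, lies beside it on the same strand (38982347 to 38992804). Its counts were 423, 566 and 503 in NC and 445, 385 and 425 in RBM47-OE, and its FPKM was 7.28, 7.46 and 7.96 in NC and 6.3, 5.86 and 6.98 in RBM47-OE. The groups did not overlap in FPKM, but the highest RBM47-OE library (6.98) came close to the lowest NC library (7.28). The fall of APOBEC3B on the log2 scale was -0.32 (standard error 0.11, 95% interval -0.53 to -0.10, adjusted p = 0.020, edgeR). This call was less firm than that of APOBEC3C. With the GC offset the log2 fold change was -0.20 (adjusted p = 0.16), and the alternatives gave adjusted p-values between 0.012 and 0.16. Without NC replicate 2 it was at -0.33 (adjusted p = 0.059), without NC replicate 3 at -0.28 (adjusted p = 0.10) and without RBM47-OE replicate 2 at -0.24 (adjusted p = 0.11), and none of these was called.

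The APOBEC3 genes are neighbours of like sequence, so reads can fit more than 1 of them. Of the distinct 100-base stretches in the APOBEC3B transcripts, 17.1% also occur in transcripts of other genes, 8.39% in APOBEC3A and 4.80% in APOBEC3D. APOBEC3C shared 0 of its 2641 stretches of that length with any other gene. With the counts of APOBEC3A and APOBEC3B summed, an alternative chosen after seeing the data, the log2 fold change was -0.30 (adjusted p = 0.020, edgeR). The FPKM of APOBEC3C divided by that of APOBEC3B was 5.38, 4.94 and 4.78 in NC and 5.38, 5.03 and 4.39 in RBM47-OE, so the proportion of these genes overlapped between the groups.

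The other tested APOBEC3 genes showed no called change. APOBEC3F, which acts on retroviruses, had a log2 fold change of -0.11 (standard error 0.095, adjusted p = 0.39, edgeR). APOBEC3A was at -0.23 with a standard error of 0.21, APOBEC3G at 0.20 with 0.26, and APOBEC3H at 0.06 with 0.39. These 3 genes had 11 to 100 counts per library and wide 95% intervals, of -0.66 to 0.20, -0.34 to 0.74 and -0.73 to 0.86. APOBEC3D had 1 to 4 counts per library and was not tested. Of its 100-base stretches, 80.2% also occur in transcripts of other genes, 79.1% in ENSG00000284554 (CTA-150C2.22). Reads of APOBEC3D may thus have been counted elsewhere or left out. CTA-150C2.22 had 14 to 48 counts per library and a log2 fold change of -0.87 (adjusted p = 0.049, edgeR). With the GC offset it was at -0.77 and not called (adjusted p = 0.14).

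**Figure D3:**
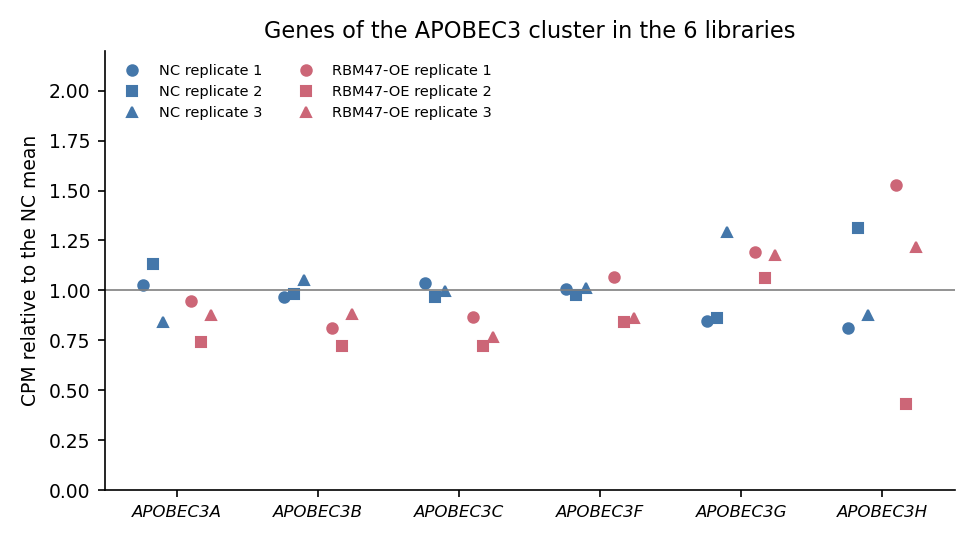
CPM of 6 genes of the APOBEC3 cluster in each library, divided by the mean of the NC libraries (grey line at 1), with NC in blue and RBM47-OE in red. All RBM47-OE libraries of APOBEC3B and APOBEC3C lie below their NC libraries, whereas the groups overlap in APOBEC3A, APOBEC3F, APOBEC3G and APOBEC3H.

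ADAR and ADARB1 showed no called change. ADAR, the enzyme that edits most double-stranded RNA and keeps it from being sensed as viral, had FPKM of 20.94, 22.41 and 22.79 in NC and 20.83, 21.61 and 22.36 in RBM47-OE. The groups overlapped almost fully in FPKM. They overlapped less in CPM (counts scaled to library size), at 299.0, 317.6 and 323.2 in NC and 288.0, 285.2 and 303.1 in RBM47-OE. The log2 fold change was -0.10 (95% interval -0.24 to 0.04, adjusted p = 0.27, edgeR), or -0.04 with the GC offset, and the alternative fits gave adjusted p-values from 0.20 to 0.78. A table of reads per gene does not separate the long interferon-induced form of ADAR from the short constitutive form.

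ADARB1, which edits glutamate receptor mRNA in neurons, was low. Its FPKM was 1.45, 1.22 and 1.37 in NC and 1.3, 1.62 and 1.39 in RBM47-OE, again overlapping. The log2 fold change was 0.02 (95% interval -0.19 to 0.24, adjusted p = 0.89, edgeR). It was 0.15 with the GC offset (95% interval -0.05 to 0.36, adjusted p = 0.34), and leaving out NC replicate 2 or RBM47-OE replicate 2 turned it to -0.05. Without the offset, the intervals leave room for changes of ADAR down to -0.24 and of ADARB1 up to 0.24 on the log2 scale.

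**Figure D4:**
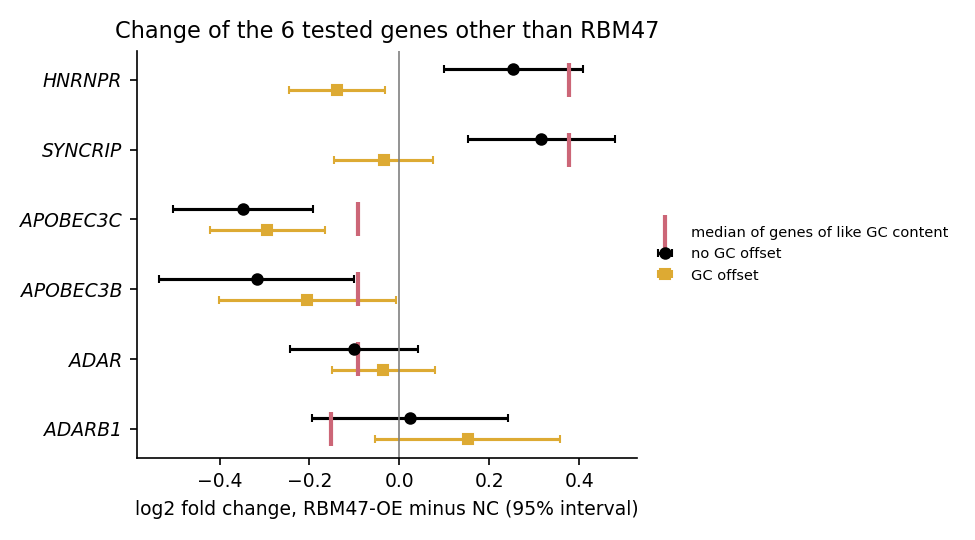
Log2 fold change (RBM47-OE minus NC) with 95% intervals for the 6 tested genes other than RBM47, without the GC offset (black circles) and with it (yellow squares), beside the median of the genes in the same GC bin (red bar). SYNCRIP and HNRNPR move from 0.32 and 0.25 to -0.04 and -0.14 with the offset, and APOBEC3C stays below 0, at -0.35 and -0.29.

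Among the 7 tested genes, 3 were called higher (RBM47, SYNCRIP and HNRNPR) and 2 lower (APOBEC3B and APOBEC3C) at an adjusted p under 0.05. Over all genes tested, 19.1% were called higher and 16.9% lower, so a call in a single gene was common in these data. With the GC offset, 1 was higher (RBM47) and 1 lower (APOBEC3C), where 6.1% of all genes were higher and 8.54% lower. At the thresholds of the study, an unadjusted p under 0.01 and a fold change over 1.5, RBM47 alone of the 7 passed, and 2.38% of all genes did. In CPM, counts scaled to the size of the library with edgeR's TMM factors, RBM47, SYNCRIP and HNRNPR lay above NC in all libraries, which 23.2% of all genes did, and APOBEC3B and APOBEC3C lay below, which 23.4% did.

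By level, the order of the genes in NC was APOBEC3C (mean FPKM 38.0 ± 1.17), ADAR (22.0 ± 0.977), HNRNPR (18.3 ± 0.350), SYNCRIP (7.75 ± 0.142), APOBEC3B (7.57 ± 0.352), RBM47 (2.06 ± 0.234), ADARB1 (1.35 ± 0.117) and A1CF (0.01 ± 0.01, SD, n = 3 each). SYNCRIP and APOBEC3B were neighbours whose libraries overlapped, and the other neighbours did not overlap. The place of SYNCRIP leaves out the read-through gene, which had a mean FPKM of 26.5 ± 1.18 in NC. In RBM47-OE, RBM47 (129.6 ± 2.25) came first, ahead of APOBEC3C (31.3 ± 2.30), HNRNPR (22.9 ± 2.59) and ADAR (21.6 ± 0.765). HNRNPR and ADAR overlapped there, and SYNCRIP (10.1 ± 1.37) and APOBEC3B (6.38 ± 0.564) no longer did.

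The libraries fall into 2 groups by RBM47, so no correlation with RBM47 is given. Among 11546 genes at a mean FPKM of 1 or more, those whose log2 CPM followed RBM47 most closely over the 6 libraries were CNEP1R1, SERPINB1, ARRDC3, PTPN3 and ARFGAP3, ranked by Pearson's coefficient. ARRDC3, an alpha-arrestin, went from a mean FPKM of 11.8 ± 0.169 to 18.8 ± 0.640 (SD, n = 3 each), a log2 fold change of 0.60, or 0.28 with the GC offset. SERPINB1, an inhibitor of neutrophil proteases, went from 28.8 ± 0.890 to 40.6 ± 1.01, a log2 fold change of 0.42. ARFGAP3, a GTPase-activating protein of the Golgi, was at 0.57, PTPN3, a tyrosine phosphatase, at 0.24 and CNEP1R1 at 0.21. CNEP1R1 was not called (adjusted p = 0.15, edgeR), and PTPN3 lost its call with the GC offset (0.13, adjusted p = 0.12) and without any single NC library (adjusted p = 0.068, 0.051 and 0.063 without NC replicates 1 to 3). RBM47 itself was left out of this ranking, and A1CF and APOBEC1 could not enter it. It ran from the highest positive coefficient down, so genes that fell could not be among the 5. SYNCRIP and HNRNPR, which rose, were not among them. The spread within each group enters the coefficient, so their absence does not compare the size of the changes. The 5 genes were picked on the same difference between the groups that is given for them, so these changes are not separate evidence.

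Around the 9 genes, 93 genes in 10 lists were described. The lists hold genes that take part in RNA editing, sense its substrates or are edited. They also hold other APOBEC deaminases, other relatives of RBM47, mRNAs described as bound by RBM47, and genes that remove or bypass uracil in DNA. Of the 93 genes, 77 had a row and 72 were tested. Of the 72, 14 were called higher (19.4%, where 19.1% of all genes were) and 16 lower (22.2%, where 16.9% of all genes were). Their median log2 fold change was 0.02, beside 0.00 over all genes tested. With the GC offset 5 were higher (6.94%, where 6.1% of all genes were) and 13 lower (18.1%, where 8.54% of all genes were). Of the 21 genes named from these lists by size of change, 6 kept an adjusted p under 0.05 in every alternative fit. Of these, 3 were higher (ZFR, RHOQ and MBD4) and 3 lower (AIMP2, OASL and UNG). The 21 were picked for large called changes in the same libraries. The share of all called genes that keep their call in every fit was not computed.

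Among 18 tested factors that bind or modulate ADAR enzymes, 6 rose (33.3%, beside 19.1% of all genes) and 4 fell (22.2%, beside 16.9%). The GC offset turned this balance, to 1 higher (5.56%, beside 6.1% of all genes) and 6 lower (33.3%, beside 8.54%). ZFR, a zinc-finger protein that limits editing by ADAR, rose from FPKM of 11.51, 11.04 and 10.96 in NC to 14.22, 17.36 and 18.34 in RBM47-OE (log2 fold change 0.50, adjusted p = 6.6e-05, edgeR, 0.22 with the GC offset). AIMP2, a scaffold of the tRNA synthetase complex described as lowering the level of ADAR proteins, fell from 18.49, 19.58 and 19.68 to 14.81, 13.05 and 15.77 (-0.47, adjusted p = 2.8e-04, -0.38 with the GC offset). FXR1, a relative of the fragile X protein, rose by 0.46 and DHX9, an RNA helicase that binds ADAR, by 0.33, and with the GC offset these were 0.10 and 0.11 and not called. DHX9 was at 0.21 without RBM47-OE replicate 3 (adjusted p = 0.047). The 6 lower genes with the GC offset, named here after their values were seen, were AIMP2, ILF2 (-0.26), SART3 (-0.25), SRSF9 (-0.23), ELAVL1 (-0.20) and TARDBP (-0.18).

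Of 11 tested sensors of double-stranded RNA, 1 rose (9.09%, beside 19.1% of all genes) and 3 fell (27.3%, beside 16.9%). The GC offset left 1 higher (9.09%, beside 6.1%) and 4 lower (36.4%, beside 8.54%). OASL, an interferon-induced protein of the oligoadenylate synthetase family, fell from FPKM of 1.98, 2.45 and 2.58 to 1.56, 1.49 and 1.53 (log2 fold change -0.69, adjusted p = 1.0e-04, edgeR), and it was the 1 gene of these lists past the thresholds of the study. OAS3, an oligoadenylate synthetase that activates RNase L, fell from 3.9, 4.39 and 4.18 to 3.23, 3.45 and 3.53 (-0.36, adjusted p = 5.4e-04). OAS1 was low, with 27 to 65 counts per library and overlapping groups (-0.75, adjusted p = 0.044). It lost its call without any single library other than NC replicate 1, and without NC replicate 3 it was at -0.51 (adjusted p = 0.27). DDX58, which encodes the sensor RIG-I, rose by 0.45 (adjusted p = 0.0047), and with the GC offset it was at 0.18 and not called. IFIH1 (MDA5), the sensor of RNA left unedited by ADAR, was at 0.17 (adjusted p = 0.44) and EIF2AK2 (PKR) at 0.22 (adjusted p = 0.054). Apart from the 3 OAS genes, the calls with the GC offset, named here after their values were seen, were MAVS (0.18, adjusted p = 0.028) and PRKRA (-0.35, adjusted p = 0.0024).

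Of 4 tested factors bound to APOBEC1 or its cofactors, 1 rose (25%, beside 19.1% of all genes) and 2 fell (50.0%, beside 16.9%). BAG4, a co-chaperone, rose by 0.34 (adjusted p = 0.0033, edgeR). HNRNPAB, an RNA-binding protein found with APOBEC1, fell by 0.31 (adjusted p = 0.0019), and KHSRP, which speeds the decay of AU-rich mRNA, fell by 0.28 (adjusted p = 0.0029). None of the 3 was called with the GC offset, at 0.04, -0.15 and -0.07, while DNAJB11, named here after its values were seen, was (-0.18, adjusted p = 0.049). That fit thus gave 0 higher (beside 6.1% of all genes) and 1 lower (25%, beside 8.54%). CELF2, another APOBEC1 partner, had 0 to 3 counts per library. RBM46 and DND1, further relatives of RBM47, are germ-cell proteins. RBM46 had 6 to 26 counts per library and DND1 36 to 56, and neither was called (adjusted p = 0.077 and 0.14), while 83.5% of the 100-base stretches of DND1 also occur in WDR55.

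Of 3 tested tRNA adenosine deaminases and ADAR-like genes, 0 rose (beside 19.1% of all genes) and 1 fell (33.3%, beside 16.9%). The 1 that fell was ADAT3, by 0.55 (adjusted p = 0.0043, edgeR). ADAT3 is the non-catalytic partner of ADAT2 in the enzyme that makes inosine in tRNA anticodons. ADAT2 itself was at 0.26 (adjusted p = 0.11), and with the GC offset ADAT3 was at -0.31 (adjusted p = 0.15).

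Among 17 tested mRNAs known as substrates of A-to-I editing, 4 rose (23.5%, beside 19.1% of all genes) and 3 fell (17.6%, beside 16.9%). The GC offset gave 2 higher (11.8%, beside 6.1%), RHOQ and PODXL (0.21, named after its values were seen), and 0 lower (beside 8.54%, and 4 at an unadjusted p under 0.05 in edgeR). RHOQ, a small GTPase, rose from FPKM of 4.29, 4.59 and 4.48 to 6.01, 6.03 and 6.01 (log2 fold change 0.36, adjusted p = 0.0010, edgeR, 0.24 with the GC offset). COG3, a Golgi tethering subunit, rose by 0.44 and CDK13, a transcription kinase, by 0.29, while UBE2O, a ubiquitin ligase, fell by 0.26. None of these 3 was called with the GC offset, at 0.20, 0.01 and -0.06. CDK13 was at 0.19 (adjusted p = 0.13) without RBM47-OE replicate 2 and 0.25 (adjusted p = 0.10) without NC replicate 2, and UBE2O was at -0.24 (adjusted p = 0.053) without NC replicate 3. NF1, a C-to-U editing substrate, was at 0.20 (adjusted p = 0.14).

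Of 5 mRNAs described elsewhere as bound by RBM47, 1 rose and 1 fell (20% each, beside 19.1% and 16.9% of all genes). CDKN1A, the cell cycle inhibitor p21, had FPKM of 231.2, 261.1 and 252.4 in NC and 225.1, 212.6 and 190.8 in RBM47-OE, and fell by 0.32 on the log2 scale (adjusted p = 0.0029, edgeR, -0.12 and not called with the GC offset). IFNAR1, a subunit of the type I interferon receptor, rose by 0.25 (adjusted p = 0.035), but was at 0.0003 and not called with the GC offset. Its call was lost without any single library other than RBM47-OE replicate 1, and leaving out RBM47-OE replicate 3 gave 0.12 (adjusted p = 0.29). DKK1, a secreted Wnt inhibitor, was at -0.16 (adjusted p = 0.15). Named here after its values were seen, it was the 1 gene of the 5 called with the GC offset (-0.29, adjusted p = 0.0092). That fit thus gave 0 higher (beside 6.1% of all genes) and 1 lower (20%, beside 8.54%).

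Cytidine deaminases leave uracil in DNA, and of 7 tested genes that remove or bypass it 1 rose (14.3%, beside 19.1% of all genes) and 2 fell (28.6%, beside 16.9%). The GC offset gave 1 higher and 1 lower (14.3% each, beside 6.1% and 8.54%). UNG, the main uracil-DNA glycosylase, fell from FPKM of 37.1, 36.68 and 37.66 to 29.79, 25.84 and 31.81 (log2 fold change -0.42, adjusted p = 3.1e-04, edgeR, -0.39 with the GC offset). SMUG1, a second such glycosylase, fell by 0.33, but was not called with the GC offset (-0.21, adjusted p = 0.071), in any of the 3 limma fits (adjusted p = 0.066, 0.063 and 0.12) or without NC replicate 2 (-0.28, adjusted p = 0.070). MBD4, a glycosylase for mismatches at methylated CpG sites, rose from 2.52, 2.1 and 2.19 to 2.94, 3.9 and 3.37 (0.51, adjusted p = 0.0021, 0.33 with the GC offset).

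**Figure D5:**
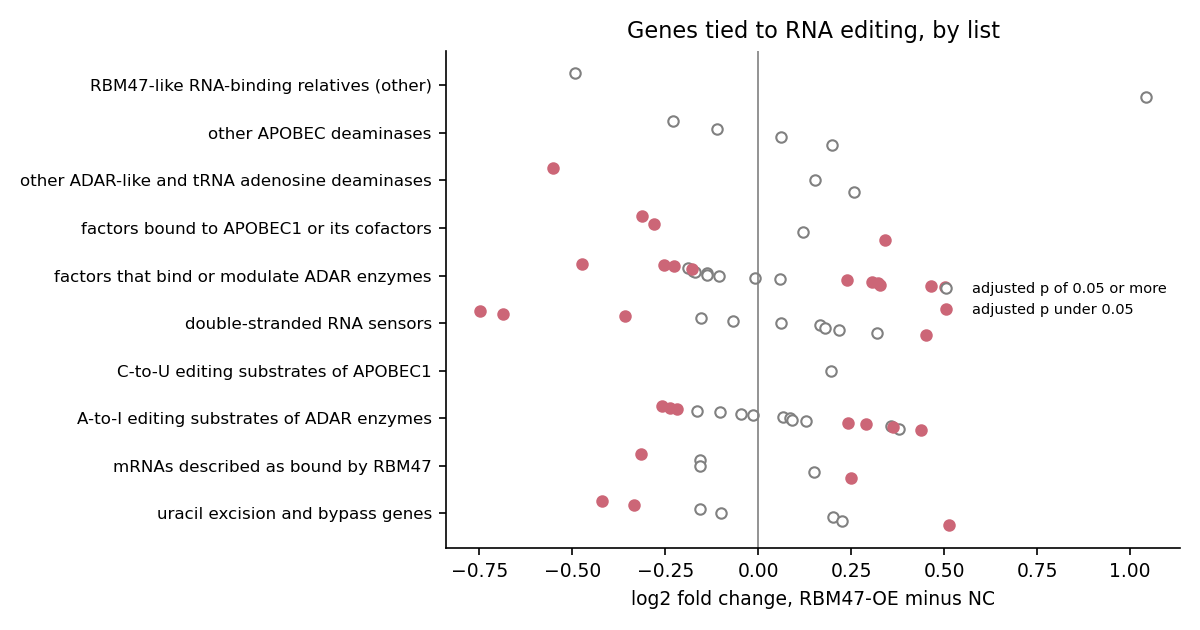
Log2 fold change (RBM47-OE minus NC) of the 72 tested genes of 10 lists tied to RNA editing, RBM47 or uracil in DNA, 1 point per gene. Points are filled where the adjusted p was under 0.05 (14 higher, 16 lower). The called genes lie on both sides of 0 in most of the longer lists, between -0.75 (OAS1) and 0.51 (MBD4).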

How the data were processed

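All 6 libraries were used. The authors discarded reads with more than 2 N bases, trimmed with FASTX-Toolkit 0.0.13, dropped reads shorter than 16 nt and aligned to GRCh38 with HISAT2, allowing 4 mismatches. The deposited counts are uniquely mapped reads per gene, not normalized, and the authors also deposited FPKM for 28244 of these genes. The counting tool, annotation release and strand setting are not given in the sources used here, and bcl2fastq, FastQC and DESeq2 appear in the submitters' processing notes.

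Counts were tested with edgeR 4.0.16 in R 4.3.3 (filterByExpr with a minimum count of 10, TMM, quasi-likelihood test, condition as the only term, Benjamini-Hochberg over 16260 genes). CPM used TMM-scaled library sizes. Coordinates, exonic GC content and overlaps came from GENCODE 44. FPKM values imply gene lengths of 110.4 to 113.2% of the GENCODE 44 exonic lengths for the genes described. The GC offset was a loess curve (span 0.3) per library. The members and lists were chosen with earlier results of these data known, and a gene of the lists is not reported here. Genes named were the described genes, the 4 largest called changes per list (mean CPM of at least 1), tested genes within 500 kb of RBM47, and the 5 most like RBM47, while other genes of the lists were named for their role. Alternatives were RLE factors, library totals, DESeq2 1.42.0, other filters, the replicate number as a block, the GC offset, limma 3.58.1 on log2(FPKM + 1) or log2(FPKM + 0.1) with a mean FPKM of at least 0.1, the thresholds of the study, counts per exonic length and each library left out. On simulated counts for this comparison, edgeR recovered 200 of 200 changed genes among 16078 with 6 false calls. With a simulated GC trend it gave 2041 false calls among 16067 without the GC offset and 5 with it. These rates hold for the simulated counts only. Recovery of changes as small as 0.25 on the log2 scale (HNRNPR) was not tested. The real RBM47-OE libraries followed GC content unequally (Spearman's rho -0.41 to -0.67). Whether real calls that follow GC content are false was not tested.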

Additional observations from a re-analysis of the deposited data

How the results depend on the processing

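RBM47 and APOBEC3C kept their direction and an adjusted p under 0.05 in every alternative fit. With the GC offset alone and with the replicate block, the log2 fold change was -0.035 and -0.036 for SYNCRIP, -0.14 and -0.14 for HNRNPR (both turned), and -0.20 and -0.21 for APOBEC3B (call lost). These fits gave 1 and 1 of the 7 tested genes higher, 1 and 1 lower, 5 and 5 related genes higher, and 992 and 1018 genes higher and 1389 and 1381 lower over the whole table. Among other named genes, CNEP1R1 turned to -0.037 and -0.039 in the same fits and IFNAR1 to -0.0037 with offset and block. APOBEC3B was not called with library totals (-0.26) or with limma on log2(FPKM + 1) (-0.22), on log2(FPKM + 0.1) (-0.25) or unfiltered (-0.22), which left 1 of the 7 lower in each of these. Unfiltered limma also lost SYNCRIP (0.34) and HNRNPR (0.31), and gave 1 of the 7 higher, 6 related genes higher and 5 lower, and 1410 genes higher and 908 lower. Limma with pseudocounts of 1 and 0.1 gave 9 and 9 related genes lower and 1586 and 1599 genes lower. At the thresholds of the study, 1 of the 7 was higher and 0 lower in edgeR and in DESeq2 (2 lower at an unadjusted p under 0.05 in either), 0 related genes were higher in either (17 in edgeR and 15 in DESeq2 at an unadjusted p under 0.05) and 1 lower, and 245 genes were higher and 142 lower. The rise in the RBM47 share was 72.4 percentage points, and 62.7 points with the read-through gene added to SYNCRIP. Apart from the offset, whose construction removes the trend, the cause of these shifts was not tested.

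With each library left out in turn, HNRNPR ranged from 0.18 to 0.33, APOBEC3B from -0.39 to -0.24 and ADARB1 from -0.050 to 0.084. The counts ranged from 2 to 3 higher and 1 to 2 lower among the 7, from 9 to 20 higher and 9 to 23 lower among related genes, and from 2090 to 3864 higher and 1675 to 3508 lower over the whole table. The lowest counts of related genes came without NC replicate 2. Whether the replicate numbers pair the libraries was not determined. Deviations from the group mean of same-numbered libraries correlated at -0.06, -0.01 and -0.02. Libraries of different number correlated at -0.02 to 0.04. Such small values over all genes cannot decide whether same-numbered libraries share a culture or a batch. With the replicate block alone, SYNCRIP was at 0.31, HNRNPR at 0.25, APOBEC3B at -0.32 and APOBEC3C at -0.35, and the calls among the 7 were those of the fit without it. The depth of the libraries could not show a change in A1CF, at 1 to 6 counts per library.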
